A study of Homo sapiens with 12 samples.

Results

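The effect of adding perifosine to cells that also received sorafenib was measured in L-540, a human cell line established from Hodgkin lymphoma. The comparison sets 3 arrays of cells given 10 µM perifosine and 5 µM sorafenib for 24 h against 3 arrays of cells given 5 µM sorafenib for 24 h, which are 6 of the 12 arrays of the study. The other 6 arrays hold control cells and cells given 10 µM perifosine alone, also at 24 h. Of 48803 probes on the Illumina BeadChip, 8092 genes entered the test: those with a probe annotated to a single gene whose detection p was below 0.01 on 3 or more of the 12 arrays. All groups come from the same cell line in culture. Nothing in the labels tells whether the letters A, B and C are separate cultures, whether the drugs of the combination were given together or in sequence, or what the control cells received. The spread between arrays behind every p-value may therefore be technical.

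Perifosine is an alkylphospholipid that inserts into membranes and keeps the kinase AKT from being recruited and activated there. Sorafenib is an oral inhibitor of RAF kinases and of receptor tyrosine kinases. AKT and the RAF, MEK and ERK cascade carry growth and survival signals from cell surface receptors, and Hodgkin lymphoma cells are known for constitutive cytokine, JAK-STAT and NF-kB signalling. Both drugs act on proteins and membranes, while the arrays report RNA.

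With sorafenib present, no gene passed the test for a difference due to perifosine. Under limma (moderated linear model, Benjamini-Hochberg adjustment), 0 of 8092 genes were called (0%), and the lowest adjusted p was 0.9999. At an unadjusted p under 0.05 there were 164 genes (2.03%), 92 of them with higher and 72 with lower values in the combination, where 404.6 would be expected if no gene differed. Of all genes, the median absolute log2 difference was 0.14, 90% of genes lay within 0.39 and 99% within 0.71. Differences of at least 2-fold were measured for 12 genes, 2 higher and 10 lower. For scale, perifosine against control gave 0 called genes (0%) with 198 at an unadjusted p under 0.05 (2.45%), and sorafenib against control gave 119 called genes (1.47%) in the same fit. The last of these shares its sorafenib arrays with the comparison described here.

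The intervals bound how large a missed difference could be. The 95% confidence interval of the fold lay entirely within 2-fold, in either direction, for 6852 genes (84.7%), within 1.5-fold for 3631 (44.9%) and within 4-fold for 8073 (99.8%). The median 95% half-width was 0.46 log2 units, which is 1.38-fold. With the genes split by mean level into 4 bins of 2023, 58.1% were bounded within 2-fold in the dimmest bin, against 88.6%, 97.0% and 95.1% in the next 3. Of the 6346 genes detected on all 6 arrays, 5987 were bounded within 2-fold (94.3%). Intervals that hold for all 8092 genes at once (Bonferroni) are wider, with a median half-width of 1.65 log2 units. They keep 58 genes within 2-fold, 4875 within 4-fold (60.2%) and 7117 within 8-fold (88.0%). The per-gene intervals hold for a gene chosen without its value in view, and the wider ones for all genes jointly.

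**Figure D1:**
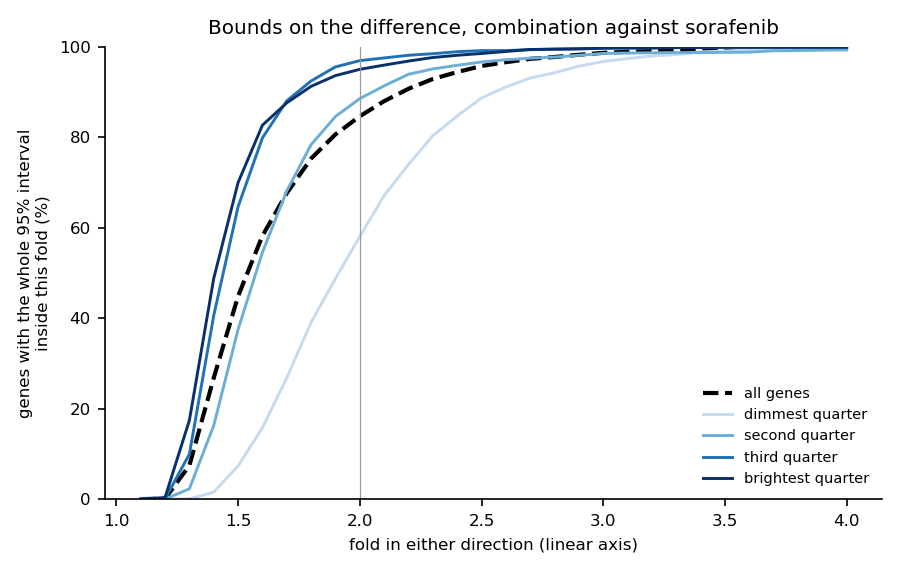
Share of genes (y axis, %) whose 95% interval of the difference between combination and sorafenib lies inside the fold on the x axis, for all 8092 genes (dashed) and for 4 bins of 2023 genes by mean level. At 2-fold (grey line) the dashed curve stands at 84.7%, and the dimmest bin, the palest curve, at 58.1%.

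The arrays of the groups did not overlap for 428 genes, with 247 higher in all 3 combination arrays (3.05%) and 181 lower in all 3 (2.24%). With 3 arrays a group, 10% of genes, both directions together, would be expected without overlap if no gene differed. A lack of overlap, here and below, therefore does not by itself set a gene apart. The plot of difference against level shows that the spread narrows with brightness.

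**Figure D2:**
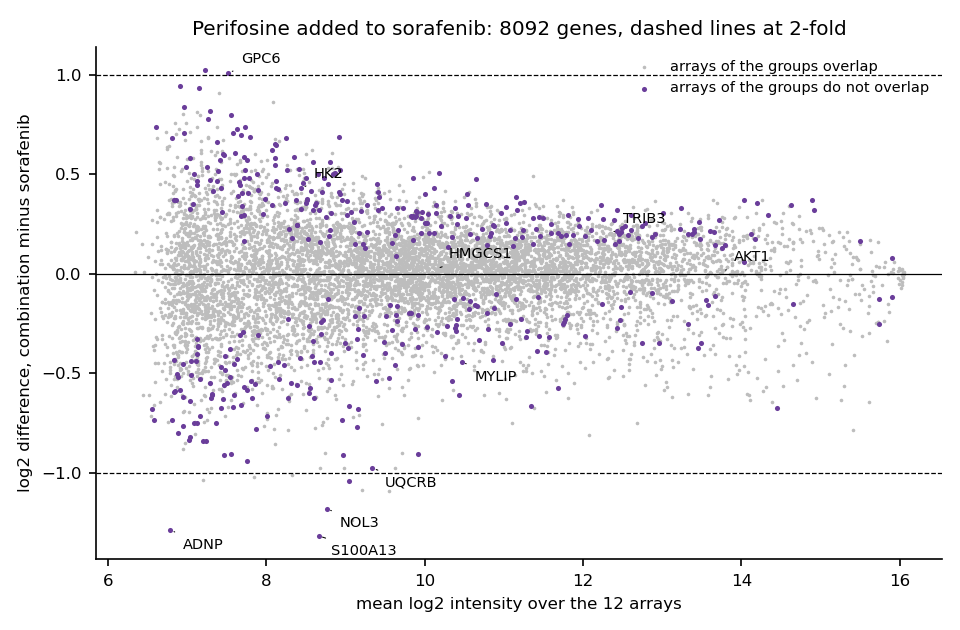
Difference between combination and sorafenib (y axis, log2) against the mean log2 intensity over 12 arrays (x axis), 1 point per gene for 8092 genes. Purple points are the 428 genes whose arrays do not overlap between the groups, dashed lines mark 2-fold, and 12 genes lie outside them.

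Combination array B stood apart from the other arrays and touches several results. It had the highest median intensity of the 12 arrays (648.7, against 404.3 to 579.3), the fewest detected probes (9291, against 10146 to 11657) and an array weight of 0.291, against 0.664 or more. Its correlation with the mean of the sorafenib arrays over all genes was 0.968, while combination arrays A and C reached 0.989 and 0.991. Without array B, limma again called 0 genes, with 136 at an unadjusted p under 0.05, and 6804 genes (84.1%) were bounded within 2-fold. The number of genes past 2-fold went from 12 to 6 without it. Of the 122 genes named by rule, 21 had a difference of the opposite sign without array B. None of these differences was called with or without it. Values without array B follow the pooled ones below for many of the lists and genes it moves, and the plot of list medians shows them for 30 lists.

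The cells carried most, but not all, of the listed markers of their label. Of 15 markers of Hodgkin and Reed-Sternberg cells, 11 were measured, and all 11 were bounded within 2-fold between the groups. CCL17 and CCL22 were detected on no array, IRF4 was detected on 2 arrays, and MUM1 had no single-gene probe. TNFRSF8, which encodes CD30, had log2 intensities of 9.29, 8.86 and 8.93 with sorafenib (arrays A, B and C in that order here and below) and 9.30, 9.08 and 9.21 with the combination. These ranges overlap. The transcription factor gene BATF3 was far brighter, at 14.75 to 15.22 with sorafenib and 14.50 to 14.97 with the combination. Of 10 B cell markers only BLK was measured, and of 15 T and NK cell markers 6 were. These 6 include CD247 and GZMB, with mean log2 levels of 12.81 and 9.58 over the 12 arrays. CD3D, CD3E and CD3G were detected on no array, nor were CD79A, MS4A1, CD14 and LYZ. Of the macrophage markers CSF1R, CD68 and S100A8 were measured, and their mean log2 level was 8.30 to 8.51 with sorafenib and 8.59 to 9.17 with the combination. That list mean is highest on array B, and S100A8 was detected on 1 of 3 arrays in each group. Its part in other results was not tested. COL3A1 and PDGFRA were the measured fibroblast markers, and no epithelial or endothelial marker was measured.

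Among the drug targets, AKT1 had log2 intensities of 13.48, 13.67 and 13.81 with sorafenib and 13.27, 14.06 and 13.67 with the combination. The combination arrays span the sorafenib arrays, and the log2 difference was 0.01 ± 0.20 (SE), with a 95% interval from -0.43 to 0.45, and it was -0.19 without array B. AKT2 was near background, with values from 6.30 to 7.52 over the 6 arrays and an interval from -1.09 to 0.31, so a loss of slightly over 2-fold lies inside it. MTOR, the kinase downstream of AKT, differed by 0.05 (-0.38 to 0.48), or -0.20 without array B. Of 33 genes listed for the PI3K and AKT pathway 23 were measured, 13 were higher and 10 lower in value, none was called, and 20 were bounded within 2-fold. Their median log2 difference was 0.03, beside 0.02 over all genes. The targets of FOXO factors, which AKT holds out of the nucleus, had 14 measured members and a median of 0.10, with 10 bounded within 2-fold. Only KLF2 among them reached an unadjusted p under 0.05. Its values were 6.04, 6.69 and 6.69 with sorafenib and 7.28, 7.23 and 6.67 with the combination, and it was detected on no sorafenib array and on 1 combination array.

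The kinases of the sorafenib-sensitive cascade were likewise close between the groups. ARAF differed by 0.15 (-0.23 to 0.52), the MEK genes MAP2K1 and MAP2K2 by 0.18 (-0.21 to 0.57) and 0.07 (-0.27 to 0.41), and the ERK gene MAPK3 by 0.06 (-0.50 to 0.61). Without array B these were -0.01 for ARAF, 0.26 for MAP2K1, -0.03 for MAP2K2 and 0.13 for MAPK3. Of 11 measured genes of the RAS, RAF, MEK and ERK list, 9 were bounded within 2-fold, with a median of 0.07. The 11 measured output genes of this pathway, such as SPRED2 and IER3, had a median of 0.11, and again 9 were bounded within 2-fold. No member of either list was called. Of the 12 receptor kinases listed as sorafenib targets, only 3 were measured.

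TRIB3 encodes a pseudokinase that binds AKT and is a target of the ATF4 stress pathway. Its log2 intensities were 12.83, 13.20 and 13.51 with sorafenib and 12.97, 13.82 and 13.37 with the combination. These overlap on both sides, and the difference was 0.20 ± 0.28 (-0.40 to 0.81), or -0.01 without array B. An addition by perifosine of more than 0.81 log2 units to the sorafenib level of TRIB3 therefore lies outside the 95% interval. The relatives TRIB1 and TRIB2 differed by 0.30 (-0.46 to 1.05) and 0.11 (-1.15 to 1.37), and TRIB2 is the least bounded of the 3. Without array B they were at -0.03 and -0.29, so neither sign is settled.

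The integrated stress response raises translation of ATF4, which switches on genes of amino acid supply and tRNA charging. In 30 measured targets the median log2 difference between combination and sorafenib was 0.14, with 23 higher and 7 lower in value, none called and 26 bounded within 2-fold. The median was 0.01 without array B. The list mean was 11.99, 12.00 and 12.08 on the sorafenib arrays and 12.07, 12.28 and 12.06 on the combination arrays. Array B is the highest of these and the other combination arrays lie inside the sorafenib range. ATF4 itself differed by 0.14 (-0.31 to 0.60), the stress factor DDIT3 (CHOP) by 0.21 (-0.42 to 0.84), and ASNS, the asparagine synthetase, by 0.13 (-0.37 to 0.62). Without array B these were 0.08 for ATF4, 0.38 for DDIT3 and -0.07 for ASNS. SARS1, the seryl-tRNA synthetase, was the exception to the overlap, at 8.68, 8.89 and 9.40 with sorafenib and 9.77, 9.49 and 9.78 with the combination. All 3 combination arrays exceed all 3 sorafenib arrays, and the log2 difference was 0.69 ± 0.25 (0.13 to 1.24). Jointly over all genes its interval was -1.28 to 2.66, and limma's adjusted p was 0.9999. CEBPB, a partner of ATF4, was the other member without overlap, at 0.34 ± 0.17, or 0.20 without array B.

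**Figure D3:**
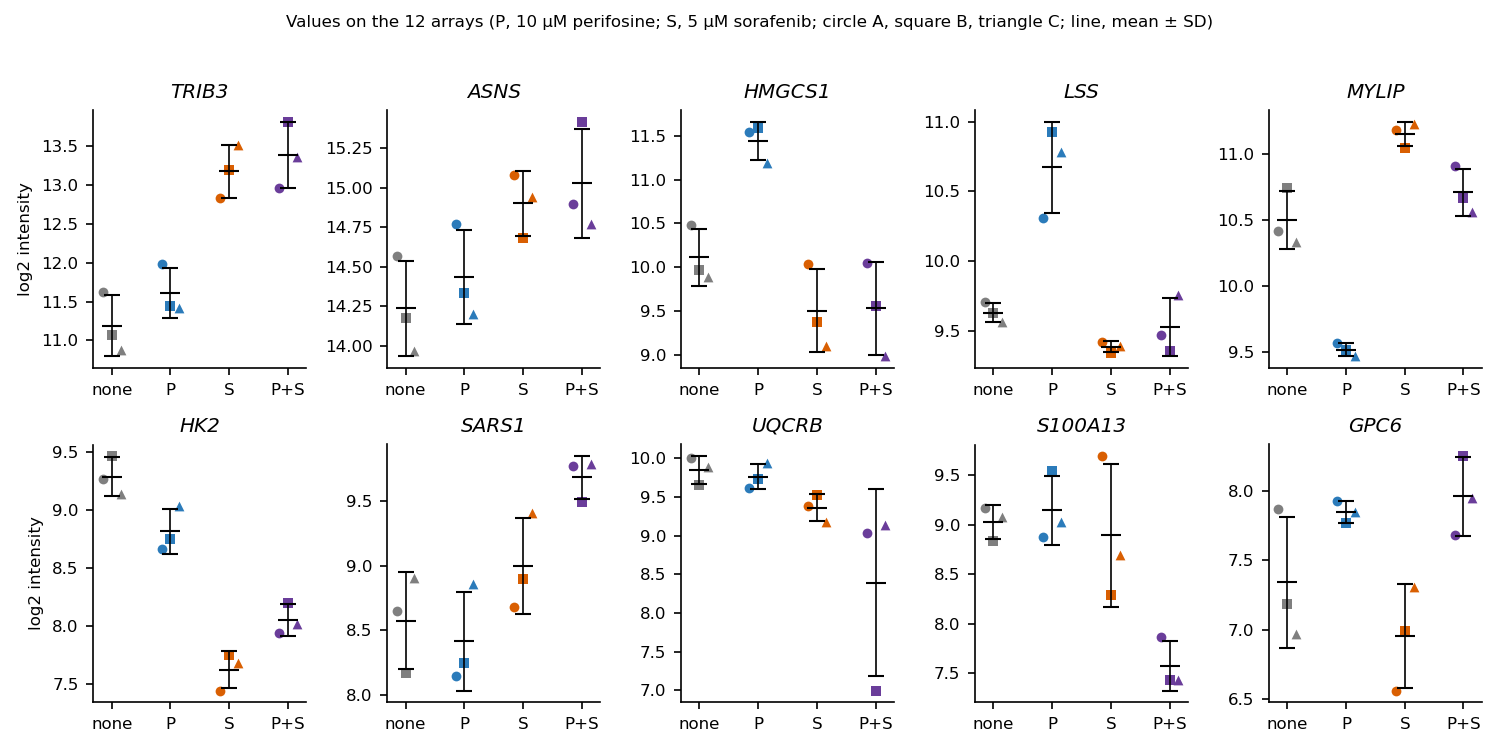
Log2 intensity (y axis, a scale of its own in each panel) of 10 genes on the 12 arrays in the 4 groups (x axis), with markers for the letters A, B and C and the mean ± SD of 3 arrays. TRIB3, ASNS and HMGCS1 with both drugs overlap sorafenib alone, while HK2, SARS1, GPC6, MYLIP, UQCRB and S100A13 do not, and UQCRB on combination array B is at 7.00.

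Of the 35 gene lists, sterol synthesis had the median perifosine difference with sorafenib that stood furthest from that without it. Cells make cholesterol from acetyl-CoA through HMGCS1, the mevalonate kinases and the cyclase LSS, under control of SREBP factors and their retention protein INSIG1. In 16 measured genes of cholesterol synthesis and uptake, combination minus sorafenib had a median log2 difference of 0.05, with 12 higher and 4 lower, none called, none at an unadjusted p under 0.05, and 15 bounded within 2-fold. The widest ends of the intervals were -0.71 for MVK and 1.15 for MSMO1. In the arrays without sorafenib, perifosine minus control had a median of 0.60 over the same genes, with 15 higher. These contrasts share no array. The list mean was 10.28, 10.12 and 10.20 in control, 10.72, 10.85 and 10.87 with perifosine, 9.83, 9.63 and 9.64 with sorafenib and 9.89, 9.74 and 9.67 with the combination. All 3 perifosine arrays are above control, whereas the combination arrays overlap the sorafenib arrays, and both groups with sorafenib are below control.

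The difference between these perifosine differences was tested gene by gene. Over all genes limma called 0 (0%), with a lowest adjusted p of 0.9999 and 163 at an unadjusted p under 0.05 (2.01%). With the letter as a replicate block the count of calls was again 0, with 255 at an unadjusted p under 0.05. In the sterol list 14 of 16 genes had the lower perifosine difference with sorafenib, where 49.9% of all genes did, and the median was -0.59, beside 0.00 over all genes. The 4 members at an unadjusted p under 0.05 were HMGCS1, LSS, FDPS and ACAT2. The list was chosen with its perifosine result known and its members move together, so these counts describe it and test nothing.

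HMGCS1, the HMG-CoA synthase of the mevalonate pathway, had log2 intensities of 10.48, 9.96 and 9.89 in control and 11.55, 11.59 and 11.19 with perifosine. With sorafenib it had 10.03, 9.38 and 9.10, and with the combination 10.05, 9.56 and 8.98. The perifosine arrays stand clear of control, and the combination arrays span the sorafenib arrays. The difference was 1.33 ± 0.30 without and 0.03 ± 0.30 with sorafenib, and the gap between them was -1.31 ± 0.42 (-2.23 to -0.39), with a limma adjusted p of 0.9999. LSS, lanosterol synthase, had 9.42, 9.34 and 9.39 with sorafenib and 9.47, 9.35 and 9.75 with the combination. Its difference was 0.14 ± 0.17, against 1.04 ± 0.17 without sorafenib, a gap of -0.90 ± 0.25. FDPS, which makes farnesyl diphosphate, had a gap of -0.86 ± 0.27, and MSMO1, a sterol methyl oxidase, one of -1.03 ± 0.59. INSIG1 showed a smaller gap, -0.23 ± 0.30, with 0.26 ± 0.21 added under sorafenib. None of these gaps was called.

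**Figure D4:**
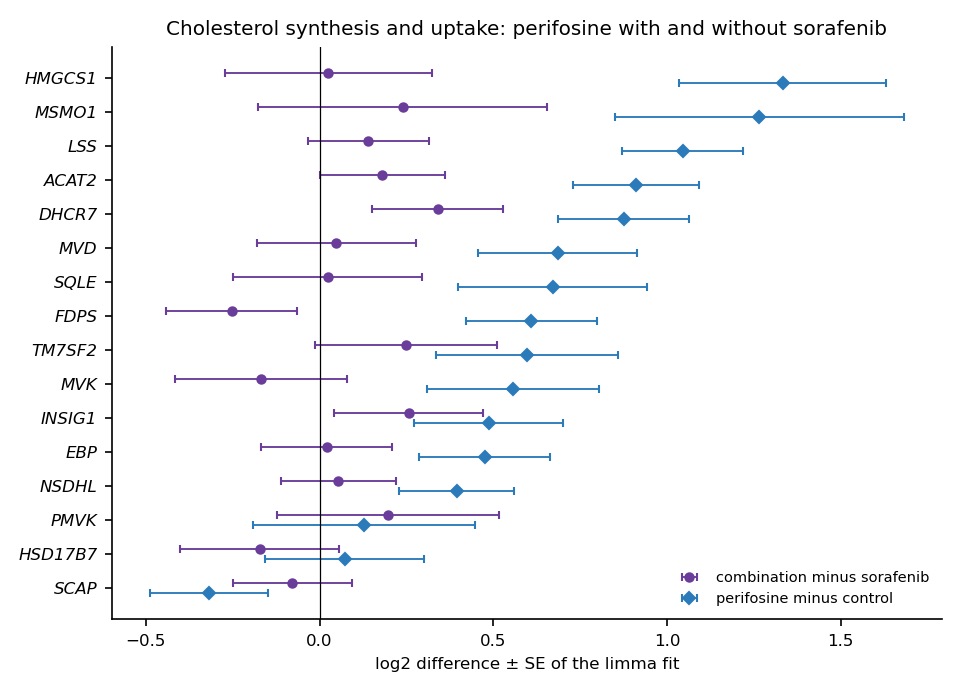
Log2 difference ± SE of the limma fit (x axis) for 16 genes of cholesterol synthesis and uptake (y axis), for perifosine against control (blue) and for the combination against sorafenib (purple). The blue points reach 1.33 and 15 of 16 lie above 0, while the purple points lie between -0.25 and 0.34.

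MYLIP encodes a ubiquitin ligase that degrades the receptor for low density lipoprotein and is induced by the sterol-sensing LXR factors. It had 11.18, 11.05 and 11.22 with sorafenib and 10.91, 10.67 and 10.56 with the combination. The groups do not overlap, and the difference was -0.44 ± 0.15 (-0.77 to -0.11), beside -0.98 ± 0.15 without sorafenib. It was the only one of 8 measured cholesterol efflux and LXR genes at an unadjusted p under 0.05, and the list median was -0.09, or -0.25 without array B. In fatty acid synthesis 8 of 10 genes were higher in value, with a median of 0.24, or 0.07 without array B. The list mean was 10.39 to 10.53 with sorafenib and 10.57 to 10.84 with the combination, without overlap, and ACSS2, a cytosolic acetyl-CoA synthetase, was the member at an unadjusted p under 0.05 (0.33 ± 0.15, or 0.20 without array B). The 20 measured genes of phosphatidylcholine and phosphatidylethanolamine synthesis, the main membrane phospholipids, had a median of 0.04. Of these, PISD, the mitochondrial phosphatidylserine decarboxylase, had 8.43, 8.46 and 8.43 with sorafenib and 8.75, 9.02 and 9.06 with the combination. Its 3 combination arrays are all higher, at a difference of 0.50 ± 0.15 (0.18 to 0.83, or -0.66 to 1.66 jointly over all genes), beside -0.30 ± 0.15 without sorafenib.

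Of 25 glycolysis and hypoxia genes 13 were higher and 12 lower in the combination than with sorafenib, with a median of 0.01. The same genes had a median of -0.19 for perifosine against control. Their median for sorafenib against control was -0.70. The perifosine difference was higher with than without sorafenib in 23 of the 25, with a median gap of 0.24 and none called. Of all genes, 49.9% had the lower perifosine difference with sorafenib. The members at an unadjusted p under 0.05 for this gap were 4, HK2, EGLN1, PGAM1 and ZNF395, where 2.01% of all genes were. As with the sterol list, these counts are a description and no test. HK2, the inducible hexokinase, had 7.44, 7.74 and 7.68 with sorafenib and 7.93, 8.20 and 8.01 with the combination. All combination arrays are the higher, by 0.43 ± 0.16 (0.08 to 0.78), where perifosine minus control was -0.47 ± 0.16. The gap of 0.90 ± 0.22 (0.41 to 1.39) was among the 5 of lowest unadjusted p with a higher perifosine difference under sorafenib, yet limma's adjusted p was 0.9999. Both groups with sorafenib remain below control, where HK2 was at 9.14 to 9.47. PGK1, phosphoglycerate kinase, differed by -0.18 (-0.52 to 0.16).

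Respiratory chain genes leaned the other way and the lean rested on 1 array. Of 32 measured subunits 25 were lower in value in the combination, with a median of -0.25, which was -0.03 without array B. The list mean was 13.24, 13.31 and 13.34 with sorafenib and 13.18, 12.61 and 13.36 with the combination, so array B alone is far below the rest. UQCRB, a subunit of complex III, had 9.38, 9.53 and 9.17 with sorafenib and 9.03, 7.00 and 9.14 with the combination, a difference of -0.97 ± 0.44 that was -0.28 without array B. SDHA of complex II differed by 0.25 ± 0.15, or 0.14 without array B. Histone genes also turned on array B, with a median of -0.07 over 18 genes and 0.18 without it. H4C3 was at 15.70, 15.67 and 15.38 with sorafenib and at 15.77, 13.32 and 15.30 with the combination, and its difference of -0.79 became -0.05. What sets array B apart was not tested.

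The measured cell cycle genes were all bounded. All 30 measured DNA replication genes and all 28 mitosis genes had 95% intervals inside 2-fold. So did all 10 cyclin dependent kinase inhibitors and G1 cyclins, where 84.7% of all genes did. These lists are bright, with list means of 11.18 to 12.14 on the 6 arrays, and the brighter bins by mean level reached 97.0% and 95.1%. Measured were 30 of 33, 28 of 30 and 10 of 18 listed genes. The list medians were 0.00, 0.07 and 0.14. Among the replication genes the clamp PCNA had the lowest end, -0.84, and the helicase subunit MCM6 the highest, 0.74. CDKN1A, which encodes the inhibitor p21, had 14.14, 13.90 and 13.89 with sorafenib and 14.42, 14.25 and 14.12 with the combination, overlapping by 1 array, at 0.29 ± 0.18 (-0.12 to 0.69). Its 1 other probe had the opposite direction.

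No cell death gene was called. Of 15 measured proapoptotic and death receptor genes 7 were higher and 8 lower, with a median of -0.10 and 11 bounded within 2-fold. TNFRSF10B, a receptor for TRAIL, differed by 0.21 (-0.35 to 0.78), and the BH3-only gene PMAIP1 by 0.27 (-0.61 to 1.15). Without array B these were 0.10 and 0.56, and the list median was -0.01. APAF1, the apoptosome scaffold, and TNFRSF1A, a TNF receptor, were lower on all 3 combination arrays, at -0.44 ± 0.26 and -0.36 ± 0.18. They were the only 2 of the 15 without overlap, where 2.24% of all genes were lower without overlap. In the antiapoptotic list of 8 measured genes the median was -0.01, and MCL1 differed by 0.09 ± 0.24 (-0.43 to 0.61), or by -0.22 without array B.

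Of 34 listed cytokine, chemokine and surface receptor genes of the Hodgkin cell 15 were measured, and all 15 were slightly higher in value. Over all genes 4285 of 8092 were higher. The list median was 0.10, and 13 members were bounded within 2-fold. Without array B the median was 0.21. None reached an unadjusted p under 0.05, and in none did the groups separate. The members share arrays, so the count is not 15 independent observations. IL22, an interleukin of the IL-10 family, had 9.20, 8.70 and 8.89 with sorafenib and 9.54, 8.78 and 9.29 with the combination, a difference of 0.28 (-0.35 to 0.90), or 0.49 without array B. CCL3, a macrophage-attracting chemokine, was detected on all 3 perifosine arrays (8.49, 8.23 and 7.95), on no control or sorafenib array and on 1 combination array. Its combination values of 6.45, 6.19 and 7.07 overlap the sorafenib values of 6.02, 6.50 and 6.92. Since these lie near background, no gap between the perifosine differences is given for it. JAK-STAT targets had a median of 0.01 over 19 genes. CISH, a feedback inhibitor of STAT5 signalling, differed by -0.19 (-0.63 to 0.24) and the kinase gene PIM1 by 0.01 (-0.48 to 0.51), or by -0.09 and -0.05 without array B. NF-kB targets had a median of 0.04 over 14 genes.

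Protein quality and turnover genes were also close. The 16 measured NRF2 targets were all bounded within 2-fold. Endoplasmic reticulum chaperones had a median of 0.03 over 18 genes, with CALR, calreticulin, at 9.52, 9.53 and 9.47 against 9.33, 8.80 and 9.03, lower on all combination arrays, with a difference of -0.46 ± 0.17. HSF1, the heat shock transcription factor, was at 8.00, 8.13 and 8.08 with sorafenib and 7.40, 7.47 and 7.48 with the combination, a difference of -0.62 ± 0.23, and the 16 heat shock genes had a median of 0.02. Of 25 proteasome subunits 24 were bounded within 2-fold. Their median was -0.06, and the list mean was 11.86 to 11.95 with sorafenib and 11.79 to 11.86 with the combination. Autophagy and lysosome genes (27), ribosome biogenesis and MYC targets (21), interferon stimulated genes (18) and HLA presentation genes (16) had medians of 0.07, -0.01, -0.08 and 0.03. No member of these lists was called.

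**Figure D5:**
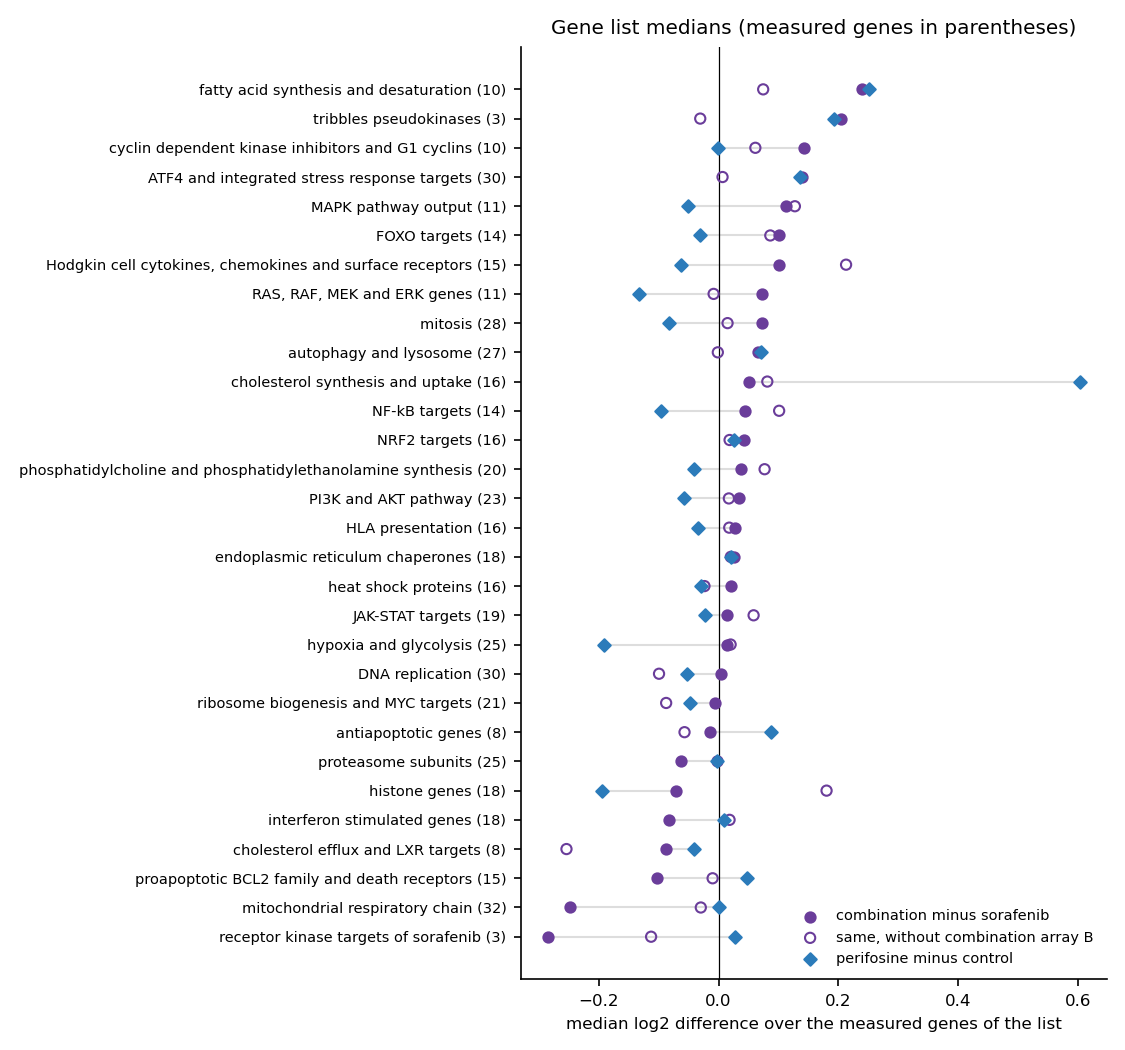
Median log2 difference (x axis) over the measured genes of 30 gene lists (y axis, number measured in parentheses), for combination minus sorafenib (filled circles), the same without combination array B (open circles) and perifosine minus control (diamonds). The diamond of the cholesterol list is at 0.60 and its circle at 0.05, and the open and filled circles of the respiratory chain stand at -0.03 and -0.25.

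The largest single differences lay among dim genes, and none was called. Among genes without overlap and detected in the whole higher group, GPC6, a cell surface heparan sulfate proteoglycan, was the highest. It had 6.56, 6.99 and 7.30 with sorafenib and 7.68, 8.25 and 7.95 with the combination, a difference of 1.01 ± 0.25 (0.45 to 1.56). As GPC6 was picked by its value, the interval that holds for all genes jointly applies, -0.95 to 2.97. HACD4, an enzyme of very long chain fatty acid elongation, and AOC1, a diamine oxidase, were detected on all 3 combination arrays and on no sorafenib array. Against the detection floor their measured means were at least 1.53-fold and at least 1.34-fold higher, with no allowance for the spread between arrays. Jointly over all genes their log2 intervals were -1.97 to 3.84 and -1.90 to 3.45. Without array B the differences were 0.72 (-0.20 to 1.63) and 0.51 (-0.29 to 1.31). LRRC57, CACNA2D2, FAM234B, TPM3P9 and the Hedgehog receptor gene PTCH1 were also picked on this side, at 0.71 to 0.82 with all arrays. TPM3P9 is a pseudogene whose probe could also bind transcripts of near-identical copies. INTS2, of the Integrator complex, was at 6.11, 6.85 and 6.52 with sorafenib and 7.11, 7.73 and 7.71 with the combination. It was detected on no sorafenib array and on 1 combination array. Its measured mean was at least 1.26-fold higher, and its joint log2 interval was -0.69 to 2.74.

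On the lower side, S100A13, a small calcium-binding protein, had 9.69, 8.29 and 8.70 with sorafenib and 7.87, 7.43 and 7.43 with the combination. The groups do not overlap, and the difference was -1.31 ± 0.31 (-1.99 to -0.64). As S100A13 was also picked by its value, the joint log2 interval applies, -3.725 to 1.095, so its sign is not settled. Of 2 other probes of the gene, 1 had the same direction. ADNP, a chromatin-associated homeobox protein, was detected on the 3 sorafenib arrays (7.45, 7.73 and 8.13) and on no combination, perifosine or control array. Its measured mean was at least 1.36-fold lower with the combination, and its joint log2 interval was -3.45 to 0.88. NOL3, an apoptosis repressor, had 9.53, 8.64 and 9.17 against 8.59, 6.79 and 8.42. Its difference of -1.18 ± 0.43 was -0.61 without array B, and its 1 other probe had the opposite direction. ZNF69 and PAX7 went from -1.04 and -0.91 to -0.46 and -0.53 without array B. ALYREF, an mRNA export adaptor, and DTWD2, a tRNA-modifying enzyme, were at -0.94 ± 0.49 and -0.91 ± 0.25.

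Counted by detection alone, 2 of 28098 single-gene probes were detected on all 3 combination arrays and on no sorafenib array, and 15 the other way round, among them ADNP, MICALL2, VHL and TNFRSF1B. Without array B, a recount chosen after seeing the data and with 1 array fewer to satisfy, the counts were 42 and 23.

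For the gap between the perifosine differences with and without sorafenib, the 95% interval lay within 2-fold for 5111 genes (63.2%) and within 4-fold for 7886 (97.5%). The median SE was 0.30, against 0.21 for combination minus sorafenib. Across the 8092 genes, the perifosine difference with sorafenib and that without it had a Pearson correlation of 0.07 and a Spearman correlation of 0.08. Genes are not independent replicates, and most differences in both contrasts are of the size of their errors. The genes of lowest unadjusted p with a higher perifosine difference under sorafenib were HK2, INTS2, PISD, NFXL1 and TPM3P9. Those with a lower one were OBI1, ADNP, LSS, CCL3 and CBFA2T2. HK2, PISD, OBI1 and LSS were detected in every group, and the gaps of PISD and OBI1 were 0.80 ± 0.21 and -1.07 ± 0.27. The other 6 were detected on no array of at least 1 group, so a gap against background is not given for them. OBI1, a ubiquitin ligase of replication origins, was at 8.69, 8.50 and 8.33 with sorafenib and 8.24, 7.60 and 7.82 with the combination. A p that misses the threshold does not show that perifosine acts alike in both settings, and the intervals give what remains possible for each gene.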

How the data were processed

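Total RNA of L-540 cells was hybridised as biotinylated cRNA, per the labels. The deposited table holds mean bead intensity per probe and array and a detection p-value, per the file headers, and BeadStudio is named without a version in the submitters' processing notes. The deposited intensities are neither background-subtracted nor scaled as far as their values show (lowest 230.9). A second table of the authors holds normalized intensity, by a method not given in the sources used here, and was an alternative. The platform annotation gave 28098 probes 1 gene symbol, 13 several and 20692 none here. No symbol needed an update.

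R 4.3.3 and limma 3.58.1 were used. Its neqc step infers the negative-control moments from the detection p-values, applies normexp with offset 16, quantile-normalizes and takes log2, so the log2 values given are not the authors' deposited ones. Of 11904 probes kept, 10117 had 1 gene, and the brightest probe stood for each of 8092 genes. For ASNS, IL22, MCL1, MAPK3, PCNA and MSMO1, the 1 other kept probe differed in the opposite direction. All 12 arrays entered 1 limma fit on 4 group means, with adjusted p under 0.05 as the threshold and 95% intervals as bounds. Fits were run on simulated data with independent noise, for each gene of the same spread on every array. That setting holds no outlying array and no deviation shared by a letter, so it does not test the intervals under either. With 3 arrays a group, the number of arrays limits the precision. Changes are relative to the quantile scale.

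The members and the 37 gene lists, 35 with measured genes, were chosen with earlier results of these data known. Named genes were the 8 higher and 8 lower genes of largest difference without overlap and detected in the whole higher group, the 3 of lowest p each way, the extremes of each list, 49 chosen genes (39 measured), and 5 each way for the gap between perifosine differences. Other list members named in the text were chosen after their values were seen. For a probe detected on no array of one group, a fold is a bound: the mean of the other group over, per array, the lowest detected value or the probe's own, whichever was higher. Such a bound concerns the measured means and leaves out the error between arrays. Same-letter residuals of combination and sorafenib correlated at 0.32, -0.10 and 0.17 for A, B and C, so the letters were not taken as pairs in that comparison. Those of perifosine and control correlated at 0.35, 0.32 and 0.27, and each letter matched its own best, so the blocked count is given beside the gap between perifosine differences. Tried as alternatives were normalization, background, filters, probe rule, weights, prior, the letter as a block, the 6 arrays alone and each array left out.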

Additional observations from a re-analysis of the deposited data

How the results depend on the processing

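Under all 24 alternatives limma called 0 genes in combination against sorafenib, and under the 23 that hold all groups 0 genes for the perifosine difference with against without sorafenib. With the replicate block the count was also 0 for both, with 262 and 255 genes at an unadjusted p under 0.05. Same-letter arrays deviated together in perifosine and control but not for letter B of combination and sorafenib. With no filter on detection, 16208 of 18852 genes were bounded within 2-fold. The bounds rest on the background correction: 99.4% of genes were bounded within 2-fold without it or in the authors' deposited table, and 74.3% with median scaling, which also moved the median of all genes from 0.02 to -0.08. Leaving out each array gave 0 calls every time, 75.8% to 85.3% bounded, and 136 to 424 genes at an unadjusted p under 0.05, the most without combination array C (424) or A (414). The median gap of the cholesterol list stayed negative in every alternative that gives it, from -0.68 to -0.36. Of 2867 recomputed values of named genes 2802 moved by less than 1 SD between arrays, and of 838 list medians 800 did. The scale of dim genes near the detection limit and the 3 arrays a group limit these bounds.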
